A study of Arabidopsis thaliana with 20 samples.

Results

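The genes described here are 9 nuclear genes of the heat stress response of Arabidopsis thaliana, of 32744 genes counted: the chaperone genes HSP101, HSP90.1, HSP70-4, HSP21, HSP18.2, HSP17.6 and HSP17.4, the heat shock factor HSFA2 and the transcriptional coactivator MBF1C. They were picked out by their gene identifiers. RNA came from rosettes of wild-type Col-0 plants at Boyes stage 1.09, grown in soil at 21 °C by day and 19 °C by night under 15000 lux with soil water held at 60%. The plants spent 8 days in the same growth conditions and then 19 days on the Phenoscope, an automated phenotyping platform, so that no heat treatment is part of the design. The N-limiting libraries, labelled replicates 1 to 10, carry the label 2.5 mM nitrate, and N-sufficient libraries with the same numbers carry the label 5 mM nitrate. All 32744 values are equal between an N-limiting library and its N-sufficient counterpart, so no comparison of nitrogen supplies was made. The counts are given under the N-limiting label, and the files do not settle which supply the counted plants had. The labels give 10 replicates and the design text of the series gives 5; where libraries are not separate plant samples, the spread between them is technical.

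Heat shock proteins are molecular chaperones that bind unfolded proteins. In plants, HSFA1 factors are held inactive in unstressed cells. Upon heat they are released, bind heat shock elements (inverted repeats of the unit GAA) and switch on chaperone genes together with HSFA2, which prolongs the response. The families also hold constitutive genes, such as the cytosolic HSC70 and HSP90.2 to HSP90.4 genes, which serve protein folding in plants that are not stressed.

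Sequences are shown for the promoters of the members that hold the element in its long form, since this is the sequence that heat shock factors bind. Upstream of HSP17.4 and HSFA2, the stretches below are from RefSeq's TAIR10.1 assembly, 5′ to 3′ on the gene's own strand, with the 3-unit element in capitals. The authors aligned to TAIR10, and the count files hold no coordinates.
HSP17.4, chr3:16984868-16984986, minus strand: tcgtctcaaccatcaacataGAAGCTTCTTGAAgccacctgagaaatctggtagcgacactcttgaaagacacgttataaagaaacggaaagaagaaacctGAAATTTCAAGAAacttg
HSFA2, chr2:11135516-11135568, plus strand: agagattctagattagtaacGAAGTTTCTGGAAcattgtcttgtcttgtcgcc
The element GAANNTTCNNGAA, searched on both strands (TTCNNGAANNTTC on the other), occurs within the 250 bases before the annotated start in 106 of 27443 promoters, or 0.386%. Of the 9 members, 2 hold it: HSP17.4 at 99 to 87 and at 18 to 6 bases before the start, and HSFA2 at 88 to 76 bases before the start. A pair of units can face inward (GAANNTTC) or outward (TTCNNGAA); each reads the same on both strands, and the long form holds both. One or both of these pairs occur in 4432 promoters (16.1%) and in 4 of the 9 members. The long form was found in 2 of 20 other heat shock factor genes, 1 of 12 other small heat shock protein genes and 0 of 12 other HSP70 genes. A match is only a run of letters. The window is placed by the annotated start, which may not be where transcription begins. A window without a match therefore does not show that a member lacks the element.

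The members were at a low basal level, and 3 of the small heat shock protein genes were at or near 0 (the plot of levels by library). Over all 10 libraries, 2674 of 460014912 counts fell on the 9 genes, or 5.81 CPM (counts per 1000000 counts) by the total count, and 182 to 413 counts per library. Library totals ran from 41.4 M to 60.3 M counts (M, 1000000) with a median of 44.0 M, and chloroplast genes held 63.9% to 72.3% of them. Levels are therefore given as CPM with library sizes scaled by the TMM method of edgeR, whose factors ran from 0.802 in replicate 3 to 1.27 in replicate 1. The CPM are relative to all counts, those of the chloroplast included.

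**Figure D1:**
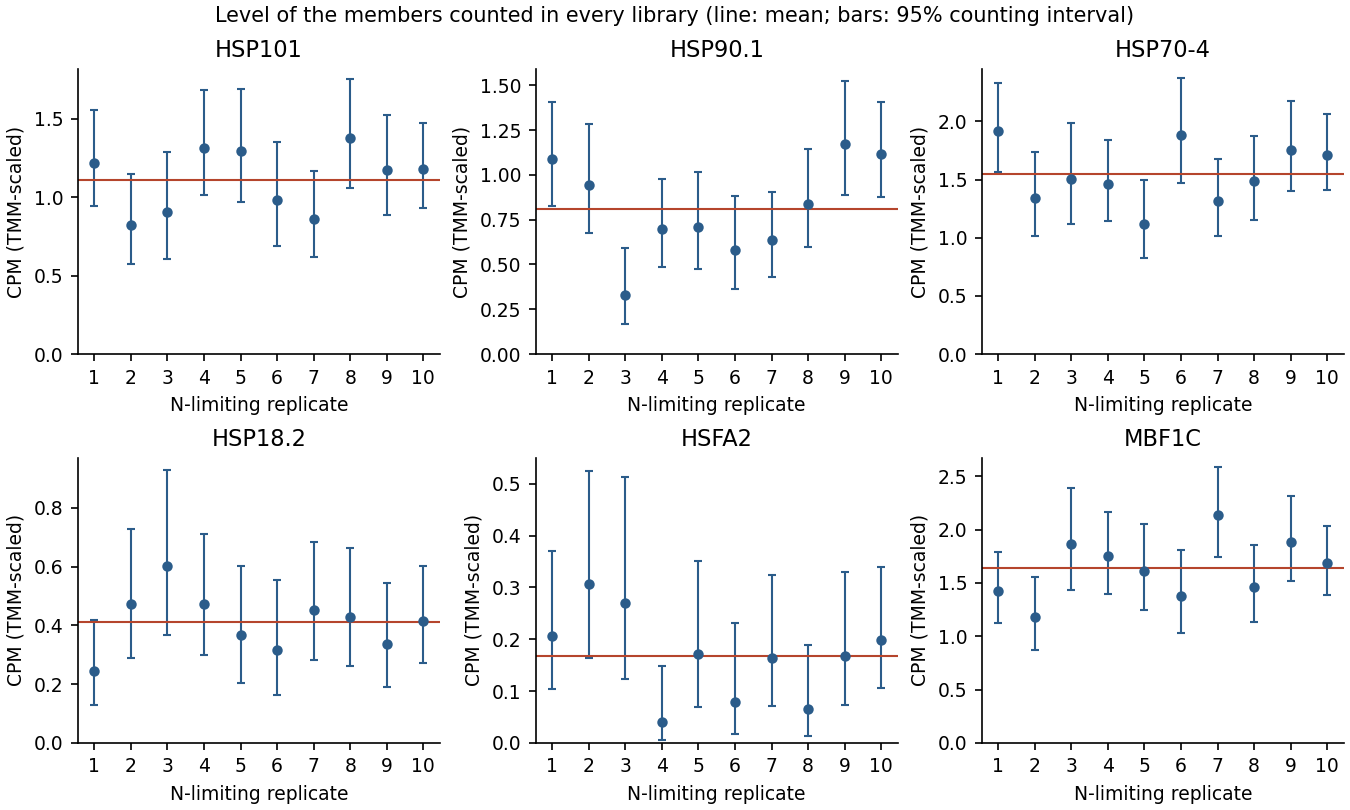
TMM-scaled CPM (vertical axes, from 0) of the 6 members with a count in every library, by N-limiting replicate (horizontal axes). Points are single libraries, bars are exact 95% Poisson intervals of the count, which cover counting error only, and the line is the mean. Most intervals cross the mean. Those that do not are HSP90.1 in replicates 1, 3 (at 0.331 CPM), 9 and 10, HSP70-4 in replicates 1 and 5, MBF1C in replicates 2 and 7, and HSFA2 in replicate 4.

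HSP101 (AT1G74310) encodes the cytosolic ClpB disaggregase, which Arabidopsis needs to acquire thermotolerance. It had 30 counts in replicate 3, a median of 54.5 and 77 counts in replicate 10. After scaling, the lowest library was replicate 2 with 0.825 CPM, the median was 1.18 CPM and the highest was replicate 8 with 1.38 CPM, a 1.67-fold range. The gene lies at chr1:27936508-27940369 on the minus strand of TAIR10.1.

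HSP90.1 (AT5G52640, chr5:21352557-21355147, plus strand) is the heat-inducible cytosolic HSP90. Counts ran from 11 in replicate 3, with a median of 36.5, to 73 in replicate 10. The scaled level was lowest in replicate 3 at 0.331 CPM, had a median of 0.773 CPM and was highest in replicate 9 at 1.17 CPM. This 3.54-fold range was wider than that of HSP101, and replicate 3, the library with the largest chloroplast share, lay at its low end.

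HSP70-4 (AT3G12580, chr3:3991117-3993886, minus strand) is a heat-inducible cytosolic HSP70. It had 46 to 112 counts with a median of 70.0. Its level ran from 1.12 CPM in replicate 5 over a median of 1.49 CPM to 1.92 CPM in replicate 1, a 1.71-fold range.

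The small heat shock proteins, which hold unfolding proteins in a state from which they can be refolded, were split. HSP18.2 (AT5G59720, chr5:24062323-24063300, plus strand), a cytosolic class I protein, was counted in every library, with 12 to 27 counts and a median of 20.0. Its level ran from 0.244 CPM in replicate 1 over a median of 0.422 CPM to 0.602 CPM in replicate 3. HSP17.6 (AT5G12030, chr5:3883957-3884838, minus strand), a cytosolic class II protein, had 1 count in each of replicates 1, 2, 7 and 10 and 0 in the other 6. HSP21 (AT4G27670, chr4:13818825-13819971, minus strand), which acts in the chloroplast, had 0 counts in all 10 libraries. HSP17.4 (AT3G46230, chr3:16984118-16984867, minus strand), another class I protein, also had 0 counts in all 10. A count of 0 allows up to 3 counts over the 10 libraries together, which is 0.00646 CPM for either gene. HSP17.4 overlaps genes on the other strand, and 61.5% of the 50-base words of its exons lie in them as well. The libraries are stranded, but whether the counting used strand is not given in the sources used here, so that reads on this overlap could be lost to the gene; HSP21 shares no such word with another gene. No such overlap was found for HSP18.2 or HSP17.6 either.

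HSFA2 (AT2G26150, chr2:11135624-11137792, plus strand), a factor that is itself induced by heat, had few counts. It had 2 in replicate 4, 3 in each of replicates 6 and 8, a median of 8.0 and 13 in each of replicates 2 and 10. The level ran from 0.0412 CPM in replicate 4 over a median of 0.169 CPM to 0.306 CPM in replicate 2. With a mean of 7.7 counts it lies below the minimum mean of 10 counts used for the tests.

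MBF1C (AT3G24500, chr3:8918267-8919683, plus strand), a coactivator that is needed for thermotolerance, was the highest of the 9. It had 50 to 110 counts with a median of 72.0, and 1.18 CPM in replicate 2, a median of 1.65 CPM and 2.13 CPM in replicate 7. Genes on the other strand overlap it, and 16.0% of its 50-base words are shared with them; for HSP101 this share is 1.75%.

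Per length, as CPM per kb of exon, the order of the levels was MBF1C, HSP70-4, HSP18.2, HSP90.1, HSP101, HSFA2, HSP17.6, then HSP21 and HSP17.4 at 0. MBF1C averaged 1.36 ± 0.236 CPM per kb and HSP70-4 0.615 ± 0.103 (SD, n = 10 each), and their ranges did not overlap. HSP18.2 averaged 0.420 ± 0.102, HSP90.1 0.386 ± 0.128 and HSP101 0.331 ± 0.0604 CPM per kb (SD, n = 10 each). These neighbours overlapped: HSP18.2 was above HSP90.1 in 7 of 10 libraries, and HSP90.1 above HSP101 in 5 of 10. The exon length of HSP90.1, 2103 bases, may leave out untranslated ends, which would raise its level per kb. HSP70-4 was above HSP18.2 in 9 of 10 libraries, with overlapping ranges. HSFA2, at 0.0891 ± 0.0460 CPM per kb (SD, n = 10), was below HSP101 in all 10 libraries with ranges apart, and above HSP17.6 in all 10. Among 27444 nuclear protein-coding genes, whose median was 0.780 CPM per kb, only MBF1C of the 9 was above the median; it exceeded 58.6% of them, HSP70-4 47.0%, HSP101 41.0% and HSFA2 32.6%. Of these coding genes, 14.9% had 0 counts in all 10 libraries, as HSP21 and HSP17.4 did.

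Several other genes of the same families, taken from lists of 67 further heat stress genes, stood far above the members, and others lay near them (the plot of families). HSP70-4 had 0.615 ± 0.103 CPM per kb, against 169 ± 33.9 for HSC70-1 and 29.3 ± 5.56 for HSC70-3, constitutive cytosolic HSP70 genes (SD, n = 10 each). A further cytosolic HSC70 gene, HSC70-2, lay much nearer to it, at 1.17 ± 0.491 CPM per kb (SD, n = 10). The ratio of HSC70-1 to HSP70-4 within a library averaged 276 ± 49.5 and ran from 212 to 347. HSP70B, the other strongly heat-inducible cytosolic gene, was lower still at 0.200 ± 0.0750 CPM per kb. HSP90.1 had 0.386 ± 0.128 CPM per kb, against 48.2 ± 5.58 for HSP90.2 and 55.1 ± 7.21 for HSP90.3 (SD, n = 10 each). The ratio of HSP90.3 to HSP90.1 averaged 156 ± 46.8 and ran from 109 to 261. It also depends on the exon lengths, 2613 bases for HSP90.3 and 2103 for HSP90.1. HSP90.2 and HSP90.3 share 18.0% and 23.9% of their 50-base words with their neighbours, so that reads could be split between them, whereas HSP90.1, HSP70-4 and HSC70-1 share none with another gene. HSC70-3 shares 16.0% of its words with other genes, so its level could be affected too.

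**Figure D2:**
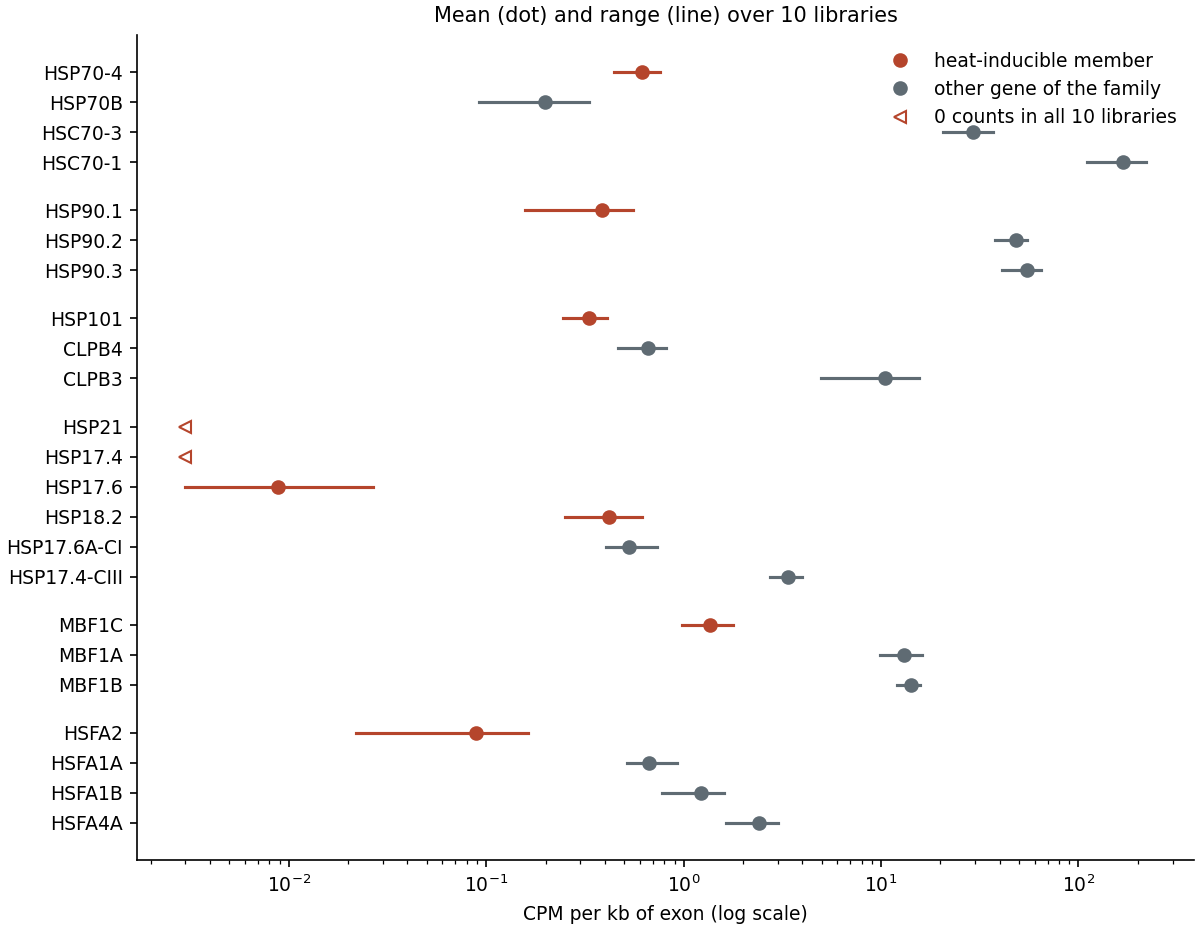
CPM per kb of exon on a log axis for the 9 members (red) and other genes of their families (grey); dots are means and lines the range over 10 libraries, open triangles mark genes with 0 counts in all 10, and the line of HSP17.6, whose lowest value is 0, ends at the left of the axis. HSC70-1 lies at 169 CPM per kb and HSP70-4 at 0.615, and both HSP90.2 and HSP90.3 lie above 10 where HSP90.1 lies at 0.386.

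HSP101 had 0.331 ± 0.0604 CPM per kb, against 10.5 ± 3.50 for CLPB3, the chloroplast ClpB, and 0.660 ± 0.129 for CLPB4, the mitochondrial one (SD, n = 10 each), and the ratio of CLPB3 to HSP101 ran from 18.5 to 43.0. CLPB2 had 0 counts in all 10 libraries. MBF1C had 1.36 ± 0.236 CPM per kb, against 13.1 ± 2.17 for MBF1A and 14.1 ± 1.13 for MBF1B (SD, n = 10 each), related coactivators, with ratios to MBF1C of 6.36 to 14.9 and 7.72 to 15.0. HSFA2 had 0.0891 ± 0.0460 CPM per kb, against 0.671 ± 0.169 for HSFA1A and 1.22 ± 0.286 for HSFA1B, which are master regulators of the response (SD, n = 10 each), and 2.41 ± 0.393 for HSFA4A. The other HSFA1 genes were lower, with 0.471 ± 0.108 CPM per kb for HSFA1D and, near HSFA2, 0.106 ± 0.0621 for HSFA1E (SD, n = 10 each). HSFA7B, another heat-induced factor, had 0 counts in all 10 libraries.

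By list, 9 of 12 other HSP70 genes and 7 of 9 other HSP90 and ClpB genes were above the median coding level, but 2 of 12 other small heat shock protein genes. Median levels were 11.1 CPM per kb for the HSP70 list, 10.8 for the HSP90 and ClpB list and 0.144 for the small heat shock protein list, against 0.331 for the 9 members. HSP17.4-CIII was the highest other small heat shock protein gene, at 3.39 ± 0.481 CPM per kb (SD, n = 10). HSP22, which acts in the secretory pathway, had 0 counts in all libraries. APX2, an ascorbate peroxidase gene induced by heat and strong light, had 0 or 1 count per library, while APX1, the constitutive cytosolic one, had 112 ± 6.75 CPM per kb. The co-chaperone J3, a DnaJ protein that works with HSC70, had 23.45 ± 2.80 CPM per kb (SD, n = 10). Leaf markers were abundant, with 4243 CPM per kb for RBCS1A. Those of flower and those of seed each summed to at most 2 counts per library, and of the root markers PYK10 had 245 to 710 counts and CASP1 2 to 12.

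Between the 10 libraries, HSP18.2 varied about as much as counting alone gives, and HSP90.1 the most beyond it of the 5 members tested (the plot of spread against mean count). The coefficient of variation (CV) of TMM-scaled CPM was 18.24% ± 2.98 for HSP101, 16.8% ± 3.30 for HSP70-4, 17.37% ± 3.91 for MBF1C and 24.4% ± 6.45 for HSP18.2 (jackknife SE, n = 10). Counting error alone gives 14.0%, 11.9%, 11.6% and 23.4% at these counts. The CV of HSP90.1 was 33.3% ± 7.88, against 16.2% from counting, and it fell to 25.8% without replicate 3. HSFA2 had 51.6% ± 12.3 (jackknife SE, n = 10), against 36.6% from counting. The median CV of the 18442 genes that passed the minimum was 15.5%, and the 5 members among them were above 56.1% (HSP70-4) to 91.3% (HSP90.1) of these genes; most of these genes had more counts.

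**Figure D3:**
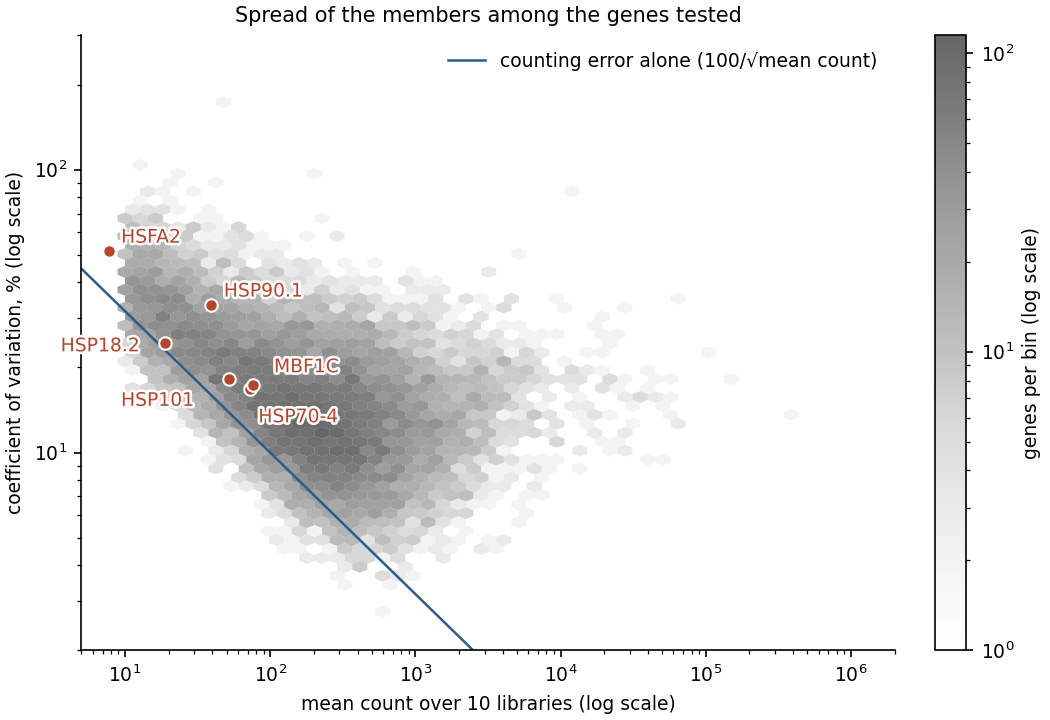
Coefficient of variation over 10 libraries against the mean count, both on log axes, for the 18442 genes tested (grey bins, darker where more genes lie) and the 6 members with a count in every library (red; HSFA2, at 7.7 counts, lies below the minimum). The line is counting error alone; HSP18.2, at 24.4%, lies close to it and HSP90.1, at 33.3%, lies well above it.

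A chi-square statistic against equal scaled levels measures the spread in units of counting error, with 1 per degree of freedom for counting error alone. It was 1.04 for HSP18.2, 1.61 for HSP101, 1.97 for HSP70-4, 2.21 for MBF1C and 3.79 for HSP90.1. Values above 1.88, the 95% point, were reached by 3 of the 5 members tested, by 73.6% of all genes tested and by 51.8% of the 6010 genes tested with a mean below 100 counts. The median of the 5 members was 1.97 and that of the genes below 100 counts 1.94. In HSFA2 the statistic was 1.93.

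The pairs of members showed no common direction across the libraries (the plot of pairs of members). Over the 15 pairs of the 6 members counted in every library, Pearson's r of log2 CPM (prior count 2) had a median of -0.05 and ran from -0.58 between HSP90.1 and HSP18.2 to 0.40 between HSP101 and HSP90.1, and 7 pairs were above 0. Spearman's rho had the same median to 2 decimals and ran from -0.58 to 0.32. These are descriptions over 10 libraries and sparse counts, and no p is given. Counting error, which makes up much of the spread of HSP18.2, HSP101 and HSFA2, draws r towards 0. A median near 0 therefore does not show that the members vary independently. With CPM by the total count, which leaves out the TMM factors, the median r was 0.21, 10 of 15 pairs were above 0, and r was 0.71 for HSP101 and HSP90.1, 0.69 for HSP90.1 and HSP70-4 and 0.58 for HSP101 and HSP70-4.

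**Figure D4:**
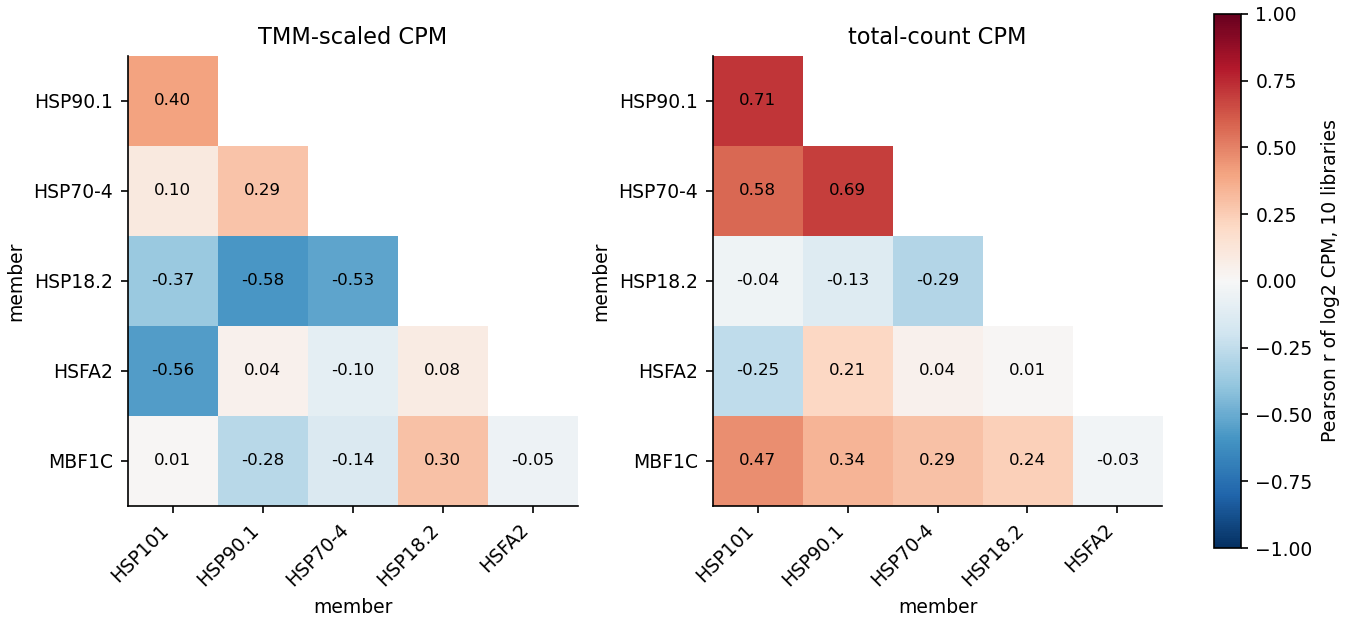
Pearson's r of log2 CPM over 10 libraries for each pair of the 6 members counted in every library (blue to red from -1 to 1), with TMM-scaled CPM on the left and total-count CPM on the right. The 3 pairs among HSP101, HSP90.1 and HSP70-4 lie at 0.10 to 0.40 on the left and at 0.58 to 0.71 on the right.

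The chloroplast share of the counts moved with the total-count levels. These levels are divided by a total that holds the chloroplast counts, so a negative r is partly built in for nuclear genes. With total-count CPM, r with the chloroplast share was -0.82 for HSP101 and -0.86 for HSP90.1 (adjusted p = 0.00562 each, two-sided permutation test, n = 10), and -0.70 for HSP70-4 (adjusted p = 0.0460, permutation test). Spearman's rho was -0.90, -0.82 and -0.73 (adjusted p = 0.00635, 0.0180 and 0.0444, permutation tests). For MBF1C r was -0.51 and for HSP18.2 -0.07. Of all genes tested, 10141 (55.0%) passed with this scaling and the median r of all genes was -0.73, so 3 of 5 members is close to the background. Without the 2 libraries farthest from the median share, r was -0.69 for HSP101, -0.70 for HSP90.1 and -0.33 for HSP70-4, and for the last the relation rests on those libraries. For HSP18.2 it was -0.86 without them. With TMM scaling, 0 of the 5 members passed, against 2035 of all genes (11.0%); the lowest adjusted p was 0.0731 for HSP90.1 (r = -0.76, raw p = 0.0116, permutation test; rho = -0.62, adjusted p = 0.200), and r was -0.53 for HSP101 and -0.20 for HSP70-4. Without the 2 farthest libraries r of HSP90.1 was -0.52, and that of HSP18.2 was -0.70, against 0.45 with all 10, a change of sign. The values were adjusted over all 18442 genes within each of the 3 families of correlations that were computed, the third being that with HSFA2.

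Whether the members followed the level of HSFA2 was tested across the libraries, since all are labelled as 1 condition. In the quasi-likelihood test of edgeR with log2 CPM of HSFA2 as the covariate, 0 of 18442 genes rose (0%) and 0 fell (0%) at an adjusted p below 0.05, while 1072 had an unadjusted p below 0.05. DESeq2 called 9 that rose and 1 that fell, none of them a member. Of the 9 members 5 passed the count minimum, and 0 of the 5 had an unadjusted p below 0.05 in edgeR. The slopes, in log2 units per log2 unit of HSFA2, were -0.22 for HSP101 (limma SE 0.12, adjusted p = 0.790), 0.14 for HSP90.1 (SE 0.23, adjusted p = 0.889), 0.04 for HSP18.2 (SE 0.18), -0.02 for HSP70-4 (SE 0.12) and -0.01 for MBF1C (SE 0.12). HSFA2 itself rests on 2 to 13 counts per library, and these SEs do not hold its counting error.

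Pearson's r with HSFA2 was -0.56 for HSP101 (raw p = 0.0936, adjusted p = 0.799, two-sided permutation test, n = 10) and between -0.10 and 0.08 for HSP90.1, HSP70-4, HSP18.2 and MBF1C. Spearman's rho for HSP101 was -0.55 (raw p = 0.105, adjusted p = 0.932, permutation test). Without replicates 4 and 8, which lie farthest from the median HSFA2 level, r was -0.23 for HSP101, -0.32 for HSP70-4 and 0.51 for HSP18.2, whose slope was then 0.47. Of all 18442 genes 0 (0%) had an adjusted p below 0.05 for r, and 997 had an unadjusted p below 0.05. Of the other lists, the heat shock factors had 10 of 15 tested slopes on HSFA2 above 0, with a median of 0.07 against 0.00 over all genes, and 4 with an unadjusted p below 0.05. Over all 18442 genes, 9367 slopes were above 0 and 1072 had an unadjusted p below 0.05 in the same edgeR test. The HSP70 list had 2 of 11 above 0, with a median of -0.14, and 1 with an unadjusted p below 0.05. It was BIP3, with a slope of 1.57 at a mean of 11.8 counts (edgeR unadjusted p = 0.000276, adjusted p = 0.746). The HSP90 and ClpB list had 1 of 8 above 0. The other small heat shock proteins had 1 of 5 above 0, and the co-chaperones and other heat-induced genes 7 of 12. In the light and oxidative stress list 6 of 6 slopes were above 0, with a median of 0.39 and 2 with an unadjusted p below 0.05.

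Because HSFA2 had so few counts, HSP101 was also used as the covariate, a choice made after the counts were seen. The HSP101 level also holds much counting error, with a CV of 18.24% against 14.0% from counting. Its chi-square statistic of 1.61 did not reach the 95% point of 1.88. The SEs and p-values below do not hold this error. With HSP101 as the covariate, 770 of 18441 genes rose (4.18%) and 184 fell (0.998%), and 0 of the 4 other members that passed the minimum were called. Of all 18441 genes, 9059 had a slope above 0 and 4925 an unadjusted p below 0.05 in this edgeR test. The slope of HSP90.1 on HSP101 was 0.67 (limma SE 0.54, adjusted p = 0.463), that of HSP18.2 -0.48 (SE 0.45, adjusted p = 0.554), that of HSP70-4 0.13 (SE 0.31, adjusted p = 0.843) and that of MBF1C -0.07 (SE 0.31, adjusted p = 0.920). In the HSP70 list 10 of 11 slopes were above 0, with a median of 0.77 against -0.01 over all genes, and 3 genes rose. They were BIP1 by 1.56 (adjusted p = 0.0402) and BIP2 by 1.66 (adjusted p = 0.0407), chaperones of the endoplasmic reticulum, and MTHSC70-2, a mitochondrial HSP70, by 1.25 (adjusted p = 0.0436). BIP3, a further chaperone of the endoplasmic reticulum, had a slope of -1.52 (edgeR adjusted p = 0.372) at a mean of 11.8 counts. In the HSP90 and ClpB list 7 of 8 slopes were above 0, with a median of 0.70, and 2 rose: CLPB3 by 1.54 (adjusted p = 0.0389) and HSP90.6, the mitochondrial HSP90, by 1.06 (adjusted p = 0.0439). In the heat shock factor list 6 of 15 slopes were above 0, with a median of -0.18. Of the other small heat shock protein genes 3 of 5 had slopes above 0 (median 0.25). For co-chaperones and other heat-induced genes it was 7 of 12 (median 0.02). No gene of these lists was called. The 5 rising genes above and BIP3 were named after their values were seen. BIP1 and BIP2 share 22.9% and 23.0% of their 50-base words. No gene was called without replicate 2, without 3, without 4, without 6, without 7 or without 8, and without replicate 5 there were 2034 rising and 1381 falling. The number of calls thus changes with single libraries. The edgeR adjusted p of the 5 rising genes named here, 0.0389 to 0.0439, lie near the limit of 0.05. The slopes of the leaf mesophyll markers on HSP101 were above 0 in 0 of 3 (median -0.72, 2 with an unadjusted p below 0.05) and those of the light and oxidative stress genes in 0 of 6 (median -0.88). The chloroplast share had r = -0.53 with HSP101 under TMM scaling, and the part of these in the calls was not tested.

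The genes most like the members were ranked by r with the mean standardized log2 CPM of the 6 members counted in every library; HSP21, HSP17.4 and HSP17.6 could not enter. Over 14921 other genes that averaged 50 counts or more, and 10 libraries, the highest were AT2G26800 at 0.93, AT5G25230 at 0.91, WIP1 at 0.90, AT5G38240 at 0.89, UGT87A2 and RAB11c at 0.88 and 0.87, KNAT4 at 0.87 and AT4G39570 at 0.87. The lowest were PRA1.H at -0.91, AT1G75580 at -0.88, AT4G28450 at -0.87 and AT3G13160 at -0.86. The members themselves had r between -0.06 for HSP18.2 and 0.48 for HSP90.1 with this mean, so it describes none of them closely. None of these 12 genes is in the heat stress lists. Those lists hold at most 67 of the 14921 genes ranked, so 0 of 12 is close to that share. The 12 values are the extremes of 14921 correlations over 10 libraries and were not tested.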

How the data were processed

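Rosette RNA was depleted of ribosomal RNA and made into stranded libraries. The authors aligned reads with STAR to TAIR10 and deposited raw counts per gene, without normalization; the options for strand and for reads that align to several places are not given in the sources used here. All 10 pairs of N-limiting and N-sufficient libraries hold the same counts, so 10 libraries were used. The members and lists were chosen with earlier results of these data known.

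Gene models came from RefSeq's TAIR10.1 annotation, which matched all 32548 nuclear identifiers. Counts were scaled with TMM factors over the 18442 genes averaging 10 counts or more per library in edgeR 4.0.16 (R 4.3.3) and tested by its quasi-likelihood test with Benjamini-Hochberg adjustment, a gene being called below 0.05. SEs came from limma 3.58.1, and DESeq2 1.42.0 was an alternative. Correlations used 100000 permutations. The fit was tested on simulated data with 200 genes of known slope at a mean of 50 counts or more and the covariate taken as free of error. On HSFA2 (18366 and 18371 genes) it recovered 80% at a slope of 0.5 and 100% at 1. On HSP101 (18366 and 18353 genes) it recovered 39% at a slope of 1 and 100% at 2. There were 4 to 13 false calls. Named are all 9 members, at most the 3 highest and 3 most variable genes of each list (most variable among genes averaging 50 counts or more), and the genes most and least like the members' mean; genes named outside this rule were chosen for their family or after their values were seen. Counting intervals and floors (3 counts) cover counting error only.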

Additional observations from a re-analysis of the deposited data

How the results depend on the processing

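No paired analysis was possible because the N-limiting and N-sufficient libraries with the same number hold the same counts. With HSFA2 as the covariate, the counts of rising and falling genes were 0 and 0 in edgeR and 9 and 1 with DESeq2; they were also 0 with DESeq2 size factors, nuclear genes only, no count filter, each replicate left out and without the 2 libraries farthest in HSFA2. With HSP101 as the covariate, added after seeing the data, they were 770 and 184. No member was called under any of these settings. Total-count CPM, in place of TMM scaling, gave a median r of 0.21 over the pairs of members, against -0.05, and moved the CV of HSP101, HSP90.1 and HSP70-4 to 27.0%, 41.4% and 24.9%. The slopes of HSP18.2, HSP70-4 and MBF1C on HSFA2 changed sign without 1 or more of replicates 1, 2, 3, 4 and 6. Without the 2 libraries farthest in HSFA2, the slope of HSP18.2 was 0.47, against 0.04, and that of HSP70-4 -0.19, against -0.02. HSP101 as the covariate gave 306 and 45 calls without replicate 1, 701 and 180 without 9, 867 and 251 without 10, 1444 and 688 with DESeq2 and 980 and 363 with nuclear genes only. At 7.7 counts on average HSFA2 limits every statement about it. A fall in HSP21, HSP17.4 or HSP17.6 was not detectable at this depth, nor was a rise that stays below 3 counts in a library. For HSP17.4, reads on its overlap could also be lost.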

Other observations

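The light and oxidative stress list held genes of wide and of narrow spread. The median CV of the 6 that passed the count minimum was 41.1%, against 18.24% for the 5 members that passed, and this difference was not tested. APX1 had a CV of 6.01%, below that of every member. ZAT10, a zinc finger repressor induced by light and abiotic stress, had 26 to 99 counts and a CV of 51.3%, and BAP1, which is induced by singlet oxygen, had 5 to 35 counts and a CV of 61.1%. ELIP1 and ELIP2, early light-induced proteins of the thylakoid, had CVs of 27.9% and 30.8%. HSFA9, a factor known for its role in seeds, had 8 to 61 counts and a CV of 59.5%, with a spread of 13.9 in units of counting error, while the seed markers CRA1 and OLEO1 had at most 2 counts in any library. BAG6, a heat-induced co-chaperone gene, had 20 to 111 counts and a CV of 45.6%. BAP1 and HSFA9, which average fewer than 50 counts, were picked from the lists after their values were seen; the others are named by rule or as markers.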
